A study of Mus musculus with 8 samples.

Results

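Amacrine cells are the inhibitory interneurons of the inner retina, and 10 genes for their transmitters and identity were followed here through rod degeneration: Gad1, Gad2, Slc6a9, Slc32a1, Th, Chat, Slc18a3, Tfap2a, Tfap2b and Calb2. They were taken by symbol from the mouse Ensembl identifiers of a gene count table, which holds 57010 identifiers, and all 10 were found once each. The RNA came from whole retina, 1 retina per library and 2 libraries per group, 8 in all. Retinas of wild-type (WT) animals were taken on day 15 after birth (P15), and those of rd10 animals on days 15, 18 and 21. The rd10 mice were homozygous for a germline mutation of Pde6b, the rod phosphodiesterase subunit, so that every cell carried it, and their WT littermates served as controls. No animal was treated. No WT retina older than P15 was analysed here, so that at P18 and P21 age and genotype cannot be told apart. Nothing states whether the 2 retinas of a group came from different mice. Counts of Y-linked genes were 6011 and 19 in the rd10 P18 libraries, and 7193 and 3 in the rd10 P21 libraries. The retinas of each of these pairs thus differed in sex and came from different mice. For the WT P15 and rd10 P15 pairs, each alike in these counts, this was not tested. P-values therefore measure the spread between these libraries.

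Amacrine cells shape the signals that bipolar cells pass to ganglion cells. Most use GABA or glycine, while small classes also release dopamine or acetylcholine, whereas Pde6b acts in rods, not in amacrine cells. GABA is made by the glutamate decarboxylases Gad1 and Gad2, both GABA and glycine are loaded into synaptic vesicles by Slc32a1, and glycine is taken up again by Slc6a9. Th is the rate-limiting enzyme of dopamine synthesis, Chat makes acetylcholine and Slc18a3 loads it into vesicles. Tfap2a and Tfap2b are AP-2 transcription factors of postmitotic amacrine cells, and Calb2 (calretinin) is a calcium-binding protein of amacrine and ganglion cells. In whole retina, fewer cells of a type and less RNA per cell cannot be told apart, and horizontal cells also use GABA genes. The levels below are relative to the RNA of the whole retina. A fall of rod RNA can thus raise the values of other cells' genes without a change in those cells, and its part was not tested.

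Total counts lay between 28076947 and 33724562 per library. Rod transcripts were abundant in every library, with 16 rod markers summing to between 24070 and 62850 CPM (counts scaled to a common library size with TMM factors). Counts of 4 Y-linked genes summed to 5530 to 7193 in 4 libraries, namely the rd10 P15 pair and replicate 1 of each later age, and to 3 to 19 in the others, so that sex and genotype cannot be told apart at P15. Sex was unbalanced against WT at P18 and P21 too, since both WT libraries were low and replicate 1 of each rd10 pair was high. The rd10 P18 libraries stood apart from each other. Their counts differed with a chi-square of 103 per gene, against 24.5 to 39.4 in the other groups, so that no pair of libraries was alike within sampling noise. Across 5 bins of genes by exon length, the median log2 CPM of replicate 1 minus replicate 2 of rd10 P18 was 0.38 in the shortest bin, 0.16, 0, -0.17, and -0.44 in the longest, while in the other groups these medians stayed between -0.03 and 0.05. Members with short and with long exons differed too, though not all in the order of their length. Calb2, with the shortest exons of the members (1743 bases), was 0.46 higher in replicate 1 of rd10 P18, and Tfap2b (6338 bases) was 0.57 lower, at -0.57. Th (2364 bases) differed by 0.89 and Gad2 (5876 bases) by -0.45. Chat, Tfap2a and Slc6a9 (4703, 4903 and 5141 bases) differed by -0.44, -0.41 and -0.28, in a bin whose median was 0, and Slc32a1 (2797 bases) by -0.21, in the bin with a median of 0.16. Slc18a3 (2413 bases) differed by 0.02, and Gad1, with the longest exons of the members (7639 bases), by -0.01. What set these libraries apart was not tested, and for each member the P18 value is given below with both libraries.

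**Figure D1:**
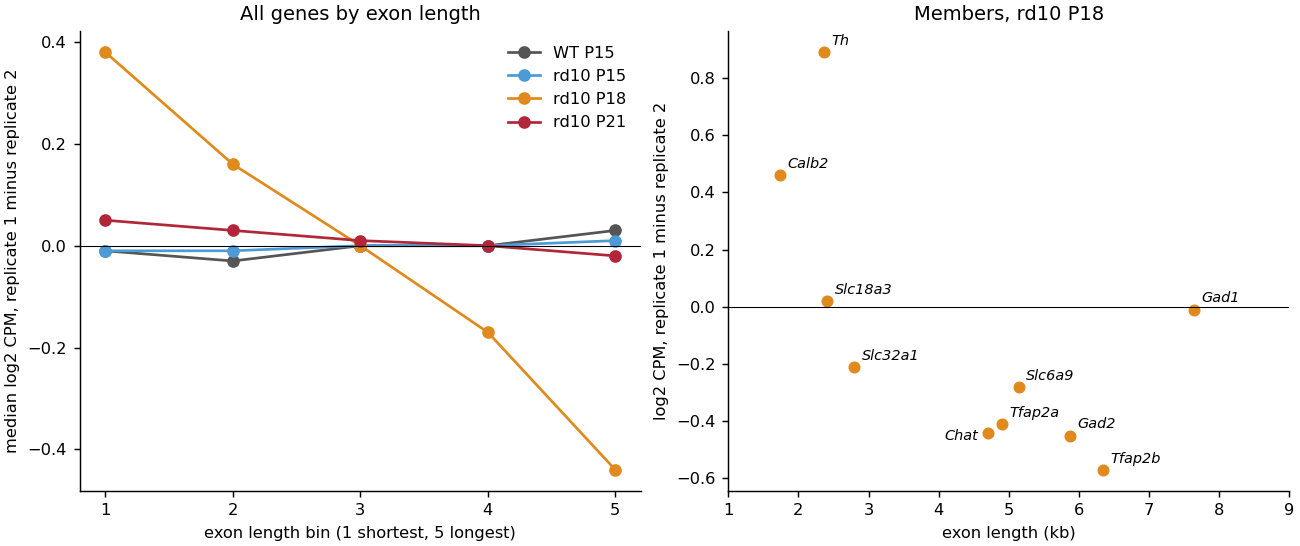
The left panel plots the median difference of log2 CPM between replicate 1 and replicate 2 in 5 bins of genes from shortest to longest exons, 1 line per group; the rd10 P18 line falls from 0.38 to -0.44 and the other lines stay near 0. The right panel plots the same difference in rd10 P18 for each member against its exon length in kilobases, with Th and Calb2 highest and Tfap2b lowest.

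Levels were compared between genes per length, as TPM (transcript levels divided by exon length and scaled to a common total), with GENCODE M21 exon lengths. Calb2 was the most abundant member, with between 883.9 and 1364 TPM over the 8 libraries. Slc32a1 followed with 177 to 278 TPM, and lay above Gad1 (155 to 206 TPM) in 8 of 8 libraries although the ranges overlapped. The ranges of Gad1, Tfap2b (101 to 197 TPM) and Slc6a9 (116 to 202 TPM) overlapped. Gad1 lay above Slc6a9 in 8 of 8 libraries, while Tfap2b held no fixed place among these 3. Gad2 lay below them at 40.5 to 66.9 TPM, and did not overlap with any other member. Tfap2a (23.2 to 36.2 TPM) and Slc18a3 (22.6 to 31.8 TPM) overlapped each other. Chat lay at 12.2 to 22.2 TPM, and Th was the least abundant at 4.12 to 7.34 TPM, which is between 84 and 166 counts per library.

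**Figure D2:**
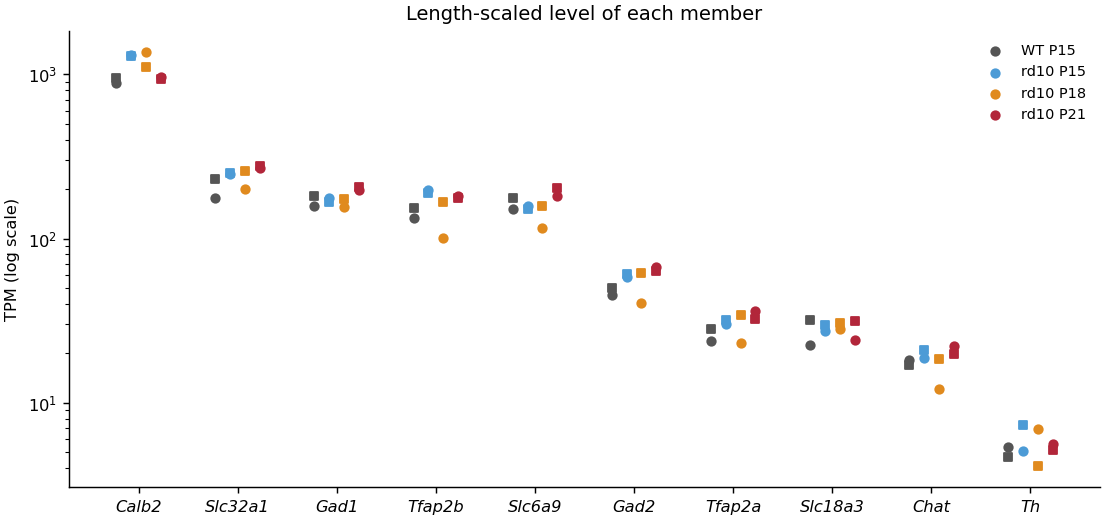
Length-scaled level of each member in TPM on a log scale, ordered by mean over the libraries, with colours for the 4 groups, circles for replicate 1 and squares for replicate 2. Calb2 lies highest at 883.9 to 1364 TPM and Th lowest at 4.12 to 7.34 TPM, while Gad1, Tfap2b and Slc6a9 overlap.

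None of the 10 members passed the test in rd10 retina at any age. A gene was called where edgeR's quasi-likelihood test gave a Benjamini-Hochberg adjusted p below 0.05 together with a log2 fold change beyond 1 in either direction. Of the 10 members 0 were called against WT P15 at P15, P18 or P21, where 0.23%, 1.48% and 0.386% of the 20457 genes tested were called. At P15, 1 of 10 members had an unadjusted p under 0.05, against 12.3% of all genes. At P18 it was again 1 of 10, against 17.4% of all genes, and at P21 it was 0 of 10, against 11.8%. DESeq2 called 0 members as well, with 1, 1 and 0 at an unadjusted p under 0.05. The lowest adjusted p of a member in edgeR was 0.3212 at P15, 0.2739 at P18 and 0.5996 at P21.

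The intervals bound what could have been missed. For 9 of 10 members the 95% interval of the log2 fold change lay within 1 of 0 at each of the 3 ages, the exception being Th, and for 5, 5 and 6 members it lay within 0.6. These intervals are not adjusted for the number of genes. The fit shares the spread of a gene over the 4 groups. Tfap2b thus had an SE of 0.19 at P15 and at P18, though its rd10 libraries differed by 0.04 and 0.57 in log2 CPM. Intervals at P18 may therefore be too narrow and those at P15 and P21 too wide, and none separates genotype from sex or age. The members' median log2 fold change was 0.21 at P15, 0.04 at P18 and 0.07 at P21, beside -0.01, 0.01 and 0 over all genes tested. At P15 both rd10 libraries lay above both WT libraries for 5 members and below for 1, against 24.8% and 24.9% of all genes. At P18 it was 1 above and 3 below, against 24.1% and 22.9% of all genes, and at P21 it was 4 above and 1 below, against 24.9% and 24.2%. These 3 comparisons share the WT libraries, so that their values are not independent of each other.

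**Figure D3:**
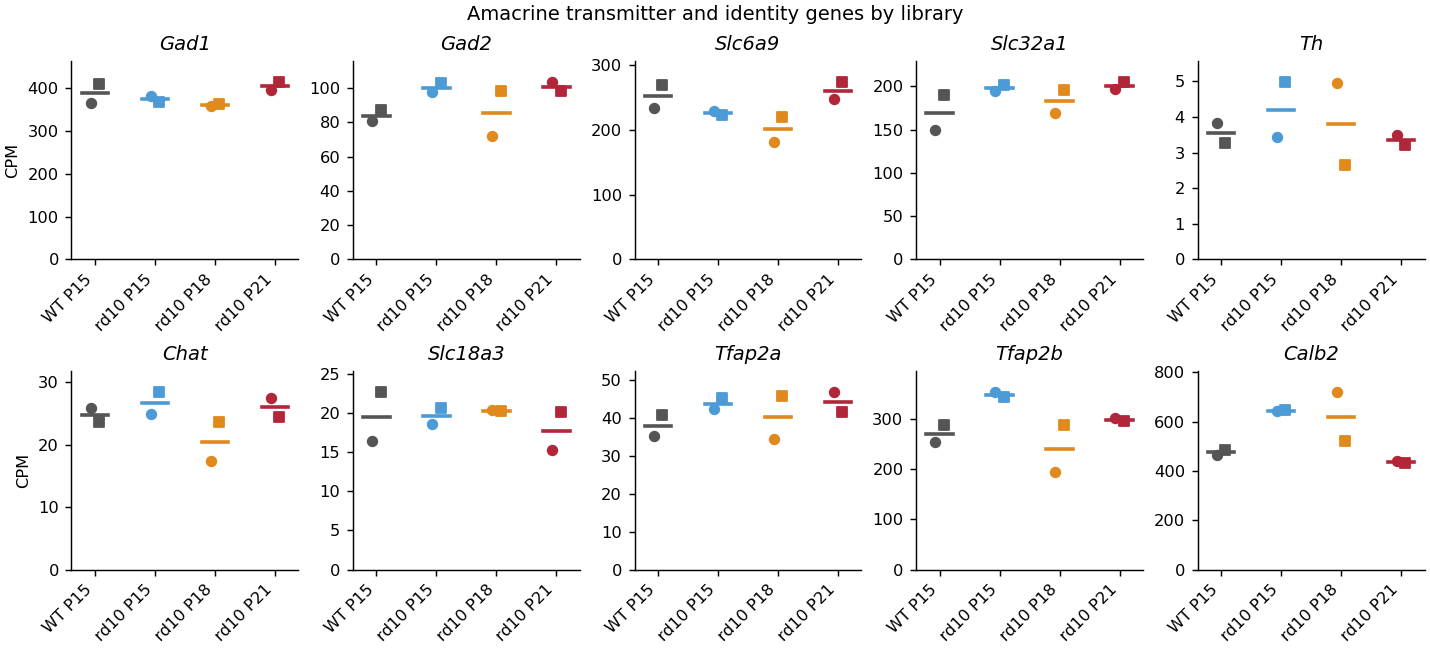
TMM-scaled CPM of each member in each of the 8 libraries (circle, replicate 1; square, replicate 2), with a bar at the mean of each group and axes from 0. Tfap2b and Calb2 show the widest differences between group means, and the rd10 P18 libraries lie far apart for several members.

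**Figure D4:**
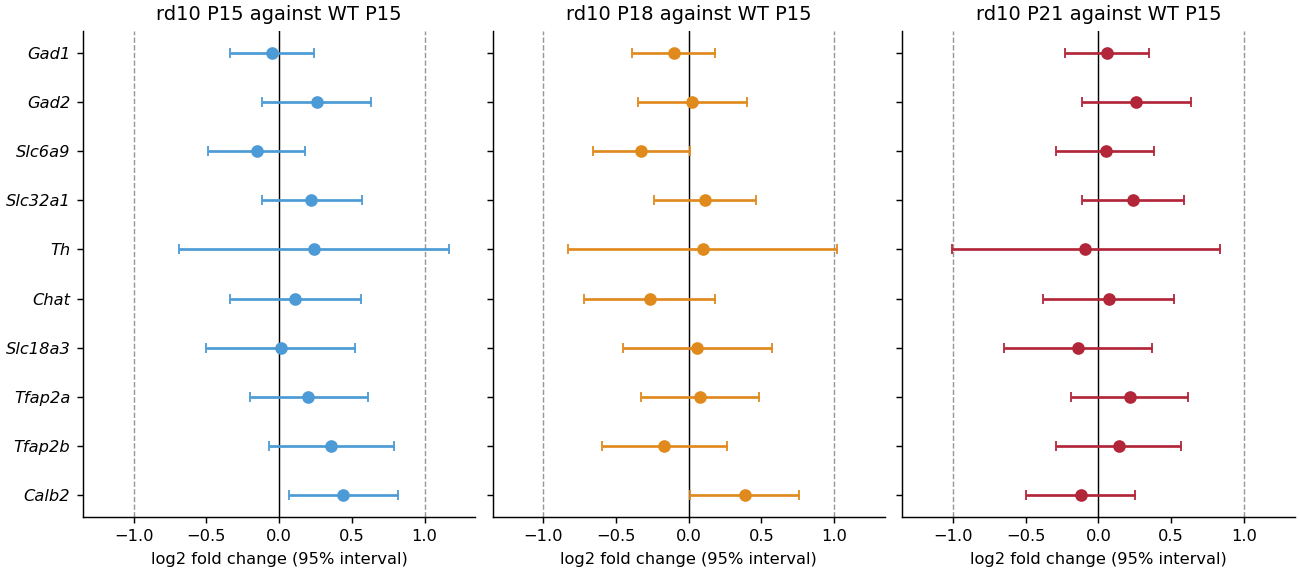
Log2 fold change of each member against WT P15 at P15, P18 and P21 (points) with the 95% interval of edgeR's quasi-likelihood fit (bars); dashed lines mark a log2 fold change of 1 in either direction. Only the intervals of Th reach past 1, and only those of Calb2 at P15 and P18 leave 0 out.

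The 2 GABA synthesis genes gave log2 fold changes between -0.10 and 0.26 against WT P15. Gad1 (chromosome 2, 70553072 to 70602014, plus strand of GRCm38) was read at 364 and 410.2 CPM in the WT libraries, while the rd10 pairs gave 382 and 366 at P15, 358 and 362 at P18 and 394 and 413 at P21. The P15 libraries lay within the WT pair, the P18 libraries just below it, and the P21 libraries within and just above it. Its log2 fold change against WT P15 was -0.05 ± 0.13 (SE) at P15, -0.10 ± 0.13 at P18 and 0.06 ± 0.13 at P21, with an interval of -0.23 to 0.35 at P21. Gad1 thus had the narrowest intervals of the members, and the P18 value turned to 0.02 when libraries were scaled by size alone.

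Gad2, the second decarboxylase, which is the form bound to synaptic vesicles, was read at 80.5 and 87.3 CPM in the WT libraries, against 97.3 and 103 in rd10 retina at P15, 71.9 and 98.4 at P18 and 103 and 98.1 at P21. Both rd10 libraries lay above both WT libraries at P15 and P21, and the P18 pair straddled the WT pair. Its log2 fold changes were 0.26 ± 0.16 at P15, 0.02 ± 0.16 at P18 and 0.26 ± 0.16 at P21, and none passed the test. The ratio of Gad1 to Gad2 in CPM was 4.53 and 4.70 in WT P15. In rd10 retina it was 3.92 and 3.56 at P15, 4.99 and 3.68 at P18 and 3.82 and 4.21 at P21. The P15 and P21 pairs thus lay below the WT pair, while the P18 pair straddled it, and the ratio was not tested.

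Slc32a1, the vesicular transporter shared by GABAergic and glycinergic cells, was read at 149 and 190.1 CPM in the WT libraries, while the rd10 pairs gave 195 and 201 at P15, 169 and 196 at P18 and 197 and 205 at P21. The WT libraries differed from each other by more than the rd10 P15 or P21 libraries did. Against WT P15 it differed by a log2 fold change of 0.22 ± 0.15 at P15, 0.11 ± 0.15 at P18 and 0.24 ± 0.15 at P21, with an interval of -0.11 to 0.59 at P21.

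Tfap2a and Tfap2b, themselves members, are AP-2 factors, and their known motif GCCNNNGGC was searched upstream of the members. Sequences are shown for Gad2 and Slc18a3, the 2 members with a match, and for Chat of the same locus as Slc18a3. Of the 10 members 9 have windows in the RefSeq promoter table (GRCm38.p6, 250 bases before to 50 after a start), with 12 windows in all. The motif, which reads the same on both strands, was found in the windows of 2 members, Gad2 with 2 matches and Slc18a3 with 3, of which 2 overlap, and in 16.6% of all 32851 windows. No match says only that these letters are not in the window, and a match is not evidence of binding. The 250 bases before each start are given 5′ to 3′ on the gene's strand, with matches in capitals, and none fell in the Chat window.
Gad2, chr2:22622077-22622326, plus strand: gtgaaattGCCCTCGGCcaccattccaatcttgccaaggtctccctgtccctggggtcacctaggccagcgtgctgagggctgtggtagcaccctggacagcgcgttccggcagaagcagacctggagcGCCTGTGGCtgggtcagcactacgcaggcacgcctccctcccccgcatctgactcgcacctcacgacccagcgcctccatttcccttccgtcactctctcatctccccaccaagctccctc
Slc18a3, chr14:32464851-32465100, minus strand: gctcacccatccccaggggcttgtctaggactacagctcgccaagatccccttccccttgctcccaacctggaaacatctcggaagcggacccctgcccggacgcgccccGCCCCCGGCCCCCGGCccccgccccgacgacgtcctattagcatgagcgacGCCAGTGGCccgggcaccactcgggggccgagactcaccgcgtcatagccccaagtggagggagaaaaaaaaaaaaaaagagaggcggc
Chat, chr14:32465910-32466159, minus strand: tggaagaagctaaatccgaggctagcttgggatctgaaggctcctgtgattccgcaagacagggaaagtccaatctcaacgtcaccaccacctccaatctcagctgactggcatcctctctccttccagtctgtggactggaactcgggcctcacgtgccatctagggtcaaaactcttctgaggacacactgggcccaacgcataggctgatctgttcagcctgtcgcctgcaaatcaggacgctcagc

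Of 6 other genes of GABA handling 0 passed the test at any age. Their median log2 fold change was 0.35 at P15, -0.03 at P18 and 0.25 at P21. Slc6a11, a plasma membrane GABA transporter, had log2 fold changes of 0.22, 0.00 and 0.33 at the 3 ages, and Slc6a13, a further transporter of low level, had 1.16, 0.76 and 1.26 with libraries between 0.85 and 17.97 CPM. The GABA-degrading transaminase Abat had 0.46, -0.05 and 0.36, and Aldh5a1, the next enzyme of that pathway, had 0.41, -0.02 and 0.13. The glutamine transporter Slc38a1 had -0.16, -0.37 and 0.03. Of 16 GABA receptor genes 0 were called, with medians of 0.08, -0.14 and 0.06, and at P21 the outermost were Gabra4 (-0.44) and Gabrd (-0.14) at the low end and Gabra5 (1.20) at the high end.

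Among glycine genes, Slc6a9 (GlyT1), the transporter that marks glycinergic amacrine cells and is also known from glia, was read at 233 and 269 CPM in the WT libraries, while the rd10 pairs gave 229 and 223 at P15, 181 and 219 at P18 and 246 and 273 at P21. The P15 and P18 rd10 libraries lay below the WT pair, and the P21 libraries lay within its range or just above it. The log2 fold change was -0.15 ± 0.15 at P15, -0.33 ± 0.15 at P18 and 0.05 ± 0.15 at P21, none past the test. Slc6a9 shares 1429 exon bases with Ccdc24 on the opposite strand. Whether the counting used strand is not given in the sources used here, so that reads of the shared part are uncertain, and Ccdc24 was read at 3016 and 3021 counts in WT P15 and 1719 to 2769 in the rd10 libraries.

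Of the 4 other genes of glycine handling 0 were called, and Gldc came nearest. Gldc, the glycine-cleaving decarboxylase of mitochondria, was read at 29.5 and 33.2 CPM in the WT libraries, against 38.1 and 40.6 in rd10 retina at P15, 51.5 and 56.7 at P18 and 59.1 and 62.8 at P21. All 6 rd10 libraries lay above the WT pair. Its log2 fold change was 0.33 ± 0.14 at P15 (adjusted p of edgeR 0.3989), 0.79 ± 0.14 at P18 (adjusted p 0.03697) and 0.96 ± 0.14 at P21 (adjusted p 0.04339), so that it passed the adjusted p at P18 and P21 but stayed under the fold threshold. Slc6a5 (GlyT2), the neuronal glycine transporter, had log2 fold changes of 0.61, 0.34 and 0.54 with overlapping libraries. Shmt2, the mitochondrial serine hydroxymethyltransferase, had 0.13, 0.52 and 0.39, and its cytosolic counterpart Shmt1, at 2.03 CPM or less, had -0.17, 0.83 and 0.05. Of 6 glycine receptor genes, the scaffold Gphn included, 0 were called, with medians of 0.08, -0.09 and 0.02. At P21 the outermost were Gphn (-0.13) and Glra4 (-0.03) at the low end and Glra1 (0.52) and Glra3 (0.07) at the high end. Glra1 was read at 1.46 CPM in replicate 1 of rd10 P18 and at 13.5 to 24.9 CPM in the other 7 libraries.

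The dopaminergic marker could be judged least. Th was read at 3.84 and 3.27 CPM in the WT libraries, while the rd10 pairs gave 3.44 and 4.97 at P15, 4.95 and 2.65 at P18 and 3.48 and 3.22 at P21. The groups overlapped, and the 2 libraries of rd10 P18 held both the second highest and the lowest value. The log2 fold change was 0.24 ± 0.41 at P15, 0.10 ± 0.41 at P18 and -0.09 ± 0.41 at P21, with an interval of -1.01 to 0.84 at P21, so that a change of up to about the fold threshold could not be detected with the spread between these libraries. Of the 7 other genes of dopamine handling 6 could be tested and 0 were called. Gch1, which makes the cofactor of Th, had log2 fold changes of 0.05, 1.29 and 1.33 at 0.70 to 3.12 CPM, with adjusted p of edgeR of 0.9917, 0.2637 and 0.3824. Ddc, the decarboxylase after Th, had 0.20, -0.33 and -0.34, and the vesicular transporter Slc18a2 had 0.30, 0.29 and 0.27. The degrading enzymes Maoa and Maob had 0.18 and -0.93 at P21. Slc6a3, the dopamine transporter, fell under the filter on low counts. Of 5 dopamine receptors 4 were tested and 0 called, the outermost at P21 being Drd1 (0.06) and Drd5 (0.15) at the low end and Drd2 (0.25) and Drd4 (0.20) at the high end.

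Both genes of the cholinergic locus, which mark starburst amacrine cells, overlapped between groups at P15 and P21. Slc18a3 lies inside the span of Chat on the same strand of chromosome 14, with 0 exon bases shared. Chat was read at 25.8 and 23.6 CPM in the WT libraries, against 24.9 and 28.4 in rd10 retina at P15, 17.4 and 23.6 at P18 and 27.4 and 24.5 at P21. Replicate 1 of rd10 P18 was the lowest of the 8 libraries, and the others lay between 23.6 and 28.4 CPM. Its log2 fold changes were 0.11 ± 0.20 at P15, -0.27 ± 0.20 at P18 and 0.07 ± 0.20 at P21.

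Slc18a3 was read at 16.4 and 22.6 CPM in the WT libraries, while the rd10 pairs gave 18.7 and 20.6 at P15, 20.4 and 20.2 at P18 and 15.3 and 20.1 at P21. The WT pair spanned all rd10 libraries but replicate 1 of rd10 P21. On the log2 scale it differed from WT P15 by 0.01 ± 0.22 at P15, 0.06 ± 0.22 at P18 and -0.14 ± 0.22 at P21. The ratio of Chat to Slc18a3 in CPM was 1.58 and 1.04 in WT P15 and between 0.850 and 1.79 in the rd10 libraries, so that the pair did not keep a fixed ratio even within WT P15.

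Of 5 other genes of acetylcholine handling 0 were called, with medians of -0.05, -0.25 and -0.05. The choline transporter Slc5a7, which belongs to cholinergic neurons, had log2 fold changes of 0.13, 0.13 and -0.05, as near to 0 as Chat. The broader choline and acetyl-CoA genes Slc44a1 and Acly had -0.31 and -0.26 at P21, with both rd10 libraries below the WT pair. The esterases Ache and Bche had 0.00 and -0.03 at P21. Of 13 acetylcholine receptors 0 were called, with medians of -0.04, -0.39 and -0.01, and 10 of 13 lay below 0 at P18. Yet both rd10 P18 libraries lay below the WT pair for only 3 of 13 and above it for 2, against 22.9% and 24.1% of all genes. Summed over the list, replicate 1 of rd10 P18 gave 289.5 CPM and replicate 2 gave 400.4, against 458 and 569.5 in WT P15. The part of the exon length difference in these values was not tested. Chrna6, a nicotinic receptor subunit, had a log2 fold change of -0.71 ± 0.13 at P18 with an adjusted p of edgeR of 0.03995, under the fold threshold, and -0.35 and -0.37 at P15 and P21. It was read at 173 and 200.4 CPM in the WT libraries and at 109 and 119 in the rd10 P18 pair. The outermost receptors at P21 were Chrm5 (-0.44) and Chrna6 at the low end and Chrnb4 (1.18, adjusted p 0.09447) and Chrna3 (0.54) at the high end.

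The AP-2 factors differed in how far they varied. Tfap2a was read at 35.2 and 40.6 CPM in the WT libraries, against 42.2 and 45.1 in rd10 retina at P15, 34.4 and 45.7 at P18 and 46.6 and 41.5 at P21. Both rd10 libraries lay above the WT pair at P15 and P21. The log2 fold change was 0.20 ± 0.18 at P15, 0.08 ± 0.18 at P18 and 0.22 ± 0.18 at P21, none past the test. Tfap2a shares exon bases with antisense RNAs, Gm26688 among them with 380 bases, which were read at 93 counts or fewer.

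Tfap2b was read at 255 and 288 CPM in the WT libraries, while the rd10 pairs gave 353 and 344 at P15, 194 and 289 at P18 and 302 and 295 at P21. The rd10 P15 libraries were the highest of all 8, the rd10 P21 libraries lay just above the WT pair, and replicate 1 of rd10 P18 was the lowest. Against WT P15 the log2 fold change was 0.36 ± 0.19 at P15 (adjusted p of edgeR 0.4885), -0.17 ± 0.19 at P18 and 0.14 ± 0.19 at P21. A term for Y-linked counts gave 0.63 at P15. That term was set by the rd10 P18 and P21 pairs alone, where replicate 1 minus replicate 2 of Tfap2b was -0.57 and 0.03 on the log2 scale. Without replicate 1 of rd10 P18 the P18 value was 0.09, and without replicate 2 it was -0.48. The ratio of Tfap2a to Tfap2b in CPM was 0.138 and 0.141 in WT P15 and between 0.119 and 0.177 in the rd10 libraries.

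Of 26 other amacrine transcription factors 24 were tested and 0 called, since Ptf1a and Foxn4, which act in the progenitors of amacrine cells, fell under the filter. Their medians were 0.23, 0.15 and 0.20 at the 3 ages, close to the members' median at P15. At P21 the outermost were Ebf2 (-0.70, at 1.49 CPM or less) and Tfap2d (-0.07) at the low end and Fezf1 (0.59) and Sox2 (0.58), which Muller glia also express, at the high end. For Sox2 both P18 and both P21 libraries lay above the WT pair.

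Calb2 had the largest log2 fold changes of the members at P15 and P18. It was read at 463 and 486 CPM in the WT libraries, against 644 and 646 in rd10 retina at P15, 719 and 522 at P18 and 441 and 431 at P21. The P15 and P18 libraries lay above the WT pair and the P21 libraries below it. At P15 the log2 fold change was 0.44 ± 0.16, with an interval of 0.07 to 0.82 and an adjusted p of edgeR of 0.3212. It was 0.39 ± 0.16 at P18 (adjusted p 0.2739) and -0.12 ± 0.16 at P21. Fitted with only the 4 libraries compared, so that the other groups did not enter the spread, the P15 value of 0.44 had an adjusted p of 0.03233, still under the fold threshold. With a term for Y-linked counts it was 0.19. Both rd10 P15 libraries were high in those counts and both WT libraries low, so that the rd10 P18 and P21 pairs alone set the term. The value of 0.19 therefore carries the differences within those pairs, and is not a P15 value freed of sex. At P18 the value was 0.14 without replicate 1 and 0.60 without replicate 2, the first of these being the library in which short transcripts were high.

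Ganglion cells also express Calb2, and their markers lay higher beside it at P15. Both rd10 P15 libraries lay above the WT pair for 12 of 12 of these markers, against 24.8% of all genes, with a median log2 fold change of 0.45 and 0 called. Summed over the list, the WT libraries gave 2112 and 2152 CPM, against 2871 and 2962 at P15, 2406 and 2292 at P18, and 1953 and 1892 at P21 in rd10 retina. None of the defining markers was at 0, Pou4f1 being read at 44.3 to 66.9 CPM, and their medians at P18 and P21 were 0.12 and -0.08. Their part in the Calb2 values was not tested. Markers of the pigment epithelium, 8 genes, summed to 42.6 and 157 CPM in the WT libraries, 222 and 260.3 in the P15 and 23.2 to 39.5 in the P18 and P21 libraries of rd10 retina, and their part was not tested either.

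Peptides and subtype markers of amacrine cells numbered 26, and 0 were called against WT P15 at any age, with medians of 0.20, 0.36 and 0.15. Pvalb, a calcium-binding protein like Calb2, was called in another comparison, higher in rd10 P18 than in rd10 P15 with a log2 fold change of 1.70 ± 0.28 and an adjusted p of edgeR of 0.04846. It was read at 18.8 and 16.4 CPM in the WT libraries, while the rd10 pairs gave 5.86 and 8.25 at P15, 27.7 and 18.1 at P18 and 14.8 and 11.96 at P21. Its rd10 P15 libraries were the lowest, which is the reverse of Calb2. At P21 the outermost of the list were Adcyap1 (-0.75) and Pvalb (-0.39) at the low end and Gal (2.58, at 4.57 CPM or less) and Megf10 (0.78), a surface protein of starburst cells, at the high end.

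Between the ages of rd10 retina 0 of 10 members were called as well. Between P18 and P15, where 0.591% of all genes were called, 1 of 10 members had an unadjusted p under 0.05 (12.9% of all genes). That was Tfap2b, with a log2 fold change of -0.53 ± 0.19, which was -0.27 without replicate 1 of rd10 P18. Between P21 and P15, where 0.401% were called, it was again 1 of 10 (12.8% of all genes), here Calb2 with -0.56 ± 0.16 and an adjusted p of edgeR of 0.2087. Both P21 libraries lay below both P15 libraries by a wide margin, and in a fit of only these 4 libraries the adjusted p was 0.02153. Between P21 and P18, where 0.0196% were called, 2 of 10 had an unadjusted p under 0.05 (10.8% of all genes), Calb2 with -0.51 ± 0.16 and Slc6a9 with 0.38 ± 0.15. DESeq2 called 0 members in these 3 comparisons, with 1, 1 and 2 at an unadjusted p under 0.05. The members' median log2 fold changes were -0.13, -0.01 and 0.15, beside 0.01, 0.01 and 0 over all genes.

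For the 3 members with the widest range of group means, the genes with the most similar course were sought, by the root mean square difference of log2 CPM centred on each gene's own mean over the 8 libraries. Tfap2b, with a range of 0.56, had Cask (0.053) and Prkaa2 (0.061) among its nearest genes. Calb2, with a range of 0.56, was nearest to Gm6344 (0.048), Blmh (0.052) and Map1lc3a (0.061), and Chat, with a range of 0.39, to Clcn3 (0.052), Nfic (0.057) and Dzank1 (0.061). Many genes came close, with 1193, 1202 and 2145 genes within 0.2 of these members. Among the members themselves, Gad2 and Tfap2a were each other's nearest gene of all tested, at 0.057, a pair picked out after its values were seen. Calb2 lay at least 0.242 from every other member. The distances include the rd10 P18 pair, whose libraries differed by exon length, and the part of that difference in them was not tested.

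The members stood beside large changes in other cells of the same libraries. Rod markers had median log2 fold changes of -0.50, -0.75 and -1.05 at P15, P18 and P21, with 0, 1 and 4 of 16 called lower. Reactive Muller glia markers had medians of -0.80, 3.35 and 1.8, with 0, 8 and 6 of 10 called higher and 1 called lower at P15, and microglia markers had 0.45, 2.01 and 2.08, with 0, 3 and 2 of 10 called higher. The members' own extremes over the 3 ages were -0.33 (Slc6a9 at P18) and 0.44 (Calb2 at P15). Bipolar cell markers, from the same nuclear layer, had medians of 0.08, 0.10 and 0.30 with 0 of 12 called. Horizontal cell markers, of which 7 of 8 were tested, had 0.27, 0.02 and 0.55 with 0 called. All members together reached 1627 and 1820 CPM in the WT libraries and between 1770 and 1989 in the rd10 libraries, a sum in which Calb2 and Gad1 weigh most.

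**Figure D5:**
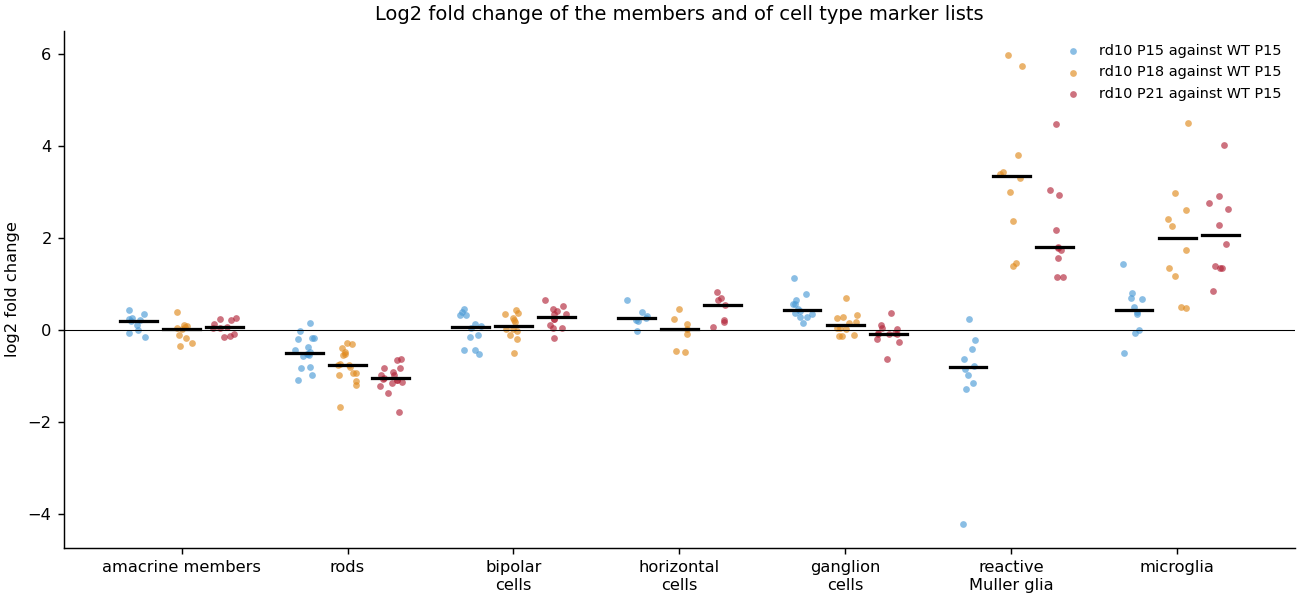
Log2 fold change against WT P15 of each member and of each tested marker of 6 other cell lists, at P15 (blue), P18 (orange) and P21 (red), with a black bar at the median. The amacrine members stay between -0.33 and 0.44, while 15 of 16 rod markers at P15 and 16 of 16 at P18 and P21 lie below 0 and the medians of reactive Muller glia and microglia markers lie between 1.8 and 3.35 at P18 and P21.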

How the data were processed

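Poly(A) RNA of whole retinas was sequenced by the authors, who deposited raw read counts per mouse Ensembl identifier, whole numbers without normalization. HISAT2 is named in the submitters' processing notes; for the counting tool, its use of strand, the genome build and the annotation, the sources used here give nothing. All 8 columns were used, and the table names only genes. Symbols, exon lengths and overlaps came from GENCODE M21 (GRCm38), which names 52081 identifiers.

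Tests used edgeR 4.0.16 (limma 3.58.1, R 4.3.3): filterByExpr (minimum count 10, minimum total 15), TMM scaling, and the robust quasi-likelihood fit over all 8 libraries with the 4 groups and no block. P-values were adjusted over the 20457 genes kept, and calls needed an adjusted p below 0.05 and a log2 fold change beyond 1 in either direction. Standard errors are the log2 fold change divided by the root of F, and 95% intervals use the test's degrees of freedom. CPM are TMM-scaled, with a prior count of 2 on the log2 scale. Exon length bins held genes with a mean count of at least 50. Groups of 2 libraries rest on 4 residual degrees of freedom in all, and intervals cover the spread between these libraries. Fits were tested on simulated data with the same spread for every gene and group and no exon length difference. Those data lacked the wider spread of the rd10 P18 pair, so that they do not show how the fits behave with it. Figures used matplotlib 3.10.

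The members, gene lists and tests were chosen with earlier results of these data known. The text names all members and the genes of the handling lists. Of receptor and amacrine lists it names called genes and the 2 with the largest rise and fall at P21. Other cell types are given by list counts, medians or sums. Lists of cones, Muller glia, endothelium, lens and red blood cells are not reported here, though those of cones, Muller glia and endothelium held called genes. Any other named gene was chosen after its values were seen. Some genes of the handling and receptor lists are not reported here, though counts and medians include them. Alternatives were DESeq2 1.42.0, RLE factors, library size only, no filter, only the 4 libraries compared, the replicate number as a block, a term for Y-linked counts, no fold threshold, and each library left out. Lists were not tested as sets.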

Additional observations from a re-analysis of the deposited data

How the results depend on the processing

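No member was called in any of the 6 comparisons under any alternative run, so the counts of 0 stayed 0, also with no fold threshold in the fit over all libraries. Of 60 log2 fold changes, none turned with DESeq2, RLE factors, the unfiltered table, a fit of only the 4 libraries compared or the replicate block. Deviations of same-numbered libraries correlated between -0.025 and 0.059, which gives no sign that replicate numbers pair the retinas but cannot exclude it. In the fit with the replicate block 0 members were called, Calb2 at P15 keeping 0.44 with an adjusted p of edgeR of 0.3926. Over all genes DESeq2 called 422, 948 and 571 genes against WT P15 where edgeR called 47, 303 and 79, and 602, 527 and 120 between rd10 ages where edgeR called 121, 82 and 4. With library size alone the median of all genes was 0.13 in the P18 and 0.11 in the P21 comparison with WT, against 0.01 and 0 with TMM.

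Some values turned. With library size only, Gad1 at P18 became 0.02, Th at P21 0.03, and, between rd10 ages, Gad1 0.03 and Calb2 0.03 (P18 and P15) and Chat 0.03 (P21 and P15). With the Y-linked term, Slc6a9 at P15 became 0.06 and Th -0.27, Th at P18 -0.21, and, between P18 and P15, Th 0.06, Slc18a3 -0.04 and Calb2 0.05, and between P21 and P15, Gad2 -0.08, Slc32a1 -0.05 and Tfap2a -0.04. Only the rd10 P18 and P21 pairs held libraries of unlike Y-linked counts, so that these pairs alone set the Y-linked term. The values with that term thus carry the differences within these pairs, that of rd10 P18 by exon length included. What made the pairs differ was not tested.

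With 1 library left out, the turning values ranged against WT as follows. At P15, Gad1 lay between -0.13 and 0.04, Th between -0.05 and 0.48, and Slc18a3 between -0.21 and 0.26. At P18, Gad2 lay between -0.22 and 0.23, Slc32a1 between -0.05 and 0.30, Th between -0.43 and 0.48, Slc18a3 between -0.15 and 0.31, Tfap2a between -0.14 and 0.27, and Tfap2b between -0.48 and 0.09. At P21, Gad1 lay between -0.01 and 0.15, Slc6a9 between -0.04 and 0.15, Th between -0.20 and 0.05, Chat between -0.01 and 0.16, and Slc18a3 between -0.34 and 0.11. Between P18 and P15, Th lay between -0.67 and 0.24, Slc18a3 between -0.01 and 0.12, Tfap2a between -0.34 and 0.07, and Calb2 between -0.30 and 0.16. Between P21 and P15, Gad2 lay between -0.03 and 0.05, Chat between -0.12 and 0.06, Slc18a3 between -0.35 and 0.03, and Tfap2a between -0.07 and 0.10. Between P21 and P18, Th lay between -0.56 and 0.34 and Tfap2a between -0.05 and 0.36. A lone library of a group is assumed to vary like the others.

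The adjusted p depended on the rd10 P18 pair. Without replicate 2 of rd10 P18, 3 members passed an adjusted p of 0.05 at P18 against WT (Calb2 at 0.60, Tfap2b at -0.48 and Slc6a9 at -0.47), 2 between P18 and P15 and 4 between P21 and P18, all under the fold threshold, while without replicate 1, 0 members passed in these comparisons. With either of these libraries left out, and with only the 4 libraries compared, Calb2 passed at P15 (adjusted p of edgeR 0.01788, 0.01836 and 0.03233) and between P21 and P15 (0.009014, 0.00888 and 0.02153). Th had the fewest counts of the members, 84 to 166, and the widest intervals, but what part counting error had in them was not tested.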

Other observations

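The acetylcholine receptor subunit Chrnb4 was read at 4.88 and 4.82 CPM in the WT libraries, against 6.52 and 8.21 in rd10 retina at P15, 10.8 and 9.99 at P18 and 11.2 and 10.8 at P21, so that all 6 rd10 libraries lay above the WT pair, with an adjusted p of edgeR of 0.06518 at P18 and 0.09447 at P21. Chrna3, which pairs with it in ganglionic receptors, had log2 fold changes of 1.11, 1.02 and 0.54 at the 3 ages, none past the test. The ganglion cell growth gene Gap43 had 1.13 at P15 (adjusted p of edgeR 0.05599), 0.71 at P18 and 0.06 at P21. Its value was largest at P15 and lowest at P21, as was that of Calb2, though Gap43 fell more between P15 and P18. These genes were chosen after their values were seen.

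Slc6a13, a GABA transporter, differed widely between libraries of 1 group, with 12.5 and 0.85 CPM for rd10 at P18, and 1.08 and 17.97 at P21.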
